A study of Mus musculus with 6 samples.

Results

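The antioxidant module examined here holds 35 genes of glutathione, thioredoxin and peroxide metabolism, with the transcription factors and the repressor that control many of them. The members were given as a list of gene symbols, and all 35 were found among the 19179 genes of each file. The libraries come from 4T1 cells, a mouse mammary carcinoma line derived from a BALB/C animal. Isolated cells were seeded in the wells of a plate, and the clones that had grown after 14 days were collected as SC and NSC clones, letters that the labels do not spell out. Of the 6 RNA libraries, 3 carry the tissue label breast cancer stem cell (stem-labelled here) and 3 the label breast cancer cell (other here), and no treatment or engineered allele is named for either group. The labels describe 3 batches from independent experiments and 10 clones of each kind. They leave unsaid by what property a clone counted as SC or NSC, whether clones were pooled in a library, and which libraries share an experiment. All libraries come from 1 cell line, and a different share of cells of some kind and a different RNA level per cell cannot be told apart in bulk RNA.

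Cells use the NADPH-dependent glutathione and thioredoxin systems to reduce peroxides and oxidised protein thiols. The transcription factor NRF2, encoded by Nfe2l2, is held at low level by KEAP1, which presents it to a ubiquitin ligase. When KEAP1 cysteines are modified, NRF2 accumulates, pairs with a small MAF protein and binds antioxidant response elements (AREs) near genes such as Nqo1, Gclc, Gclm, Txnrd1 and Srxn1. Metallothioneins bind zinc and copper and answer mainly to the metal-sensing factor MTF1.

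In the stem-labelled clones Nfe2l1, Nfe2l2, Keap1, Gclc, Gclm, Nqo1, Txnrd1 and Srxn1 were higher, while several abundant peroxide-reducing enzymes and the mitochondrial thioredoxin pair were lower. Genes known as NRF2 targets were on both sides in the deposited values. Osgin1, Prdx1, Gstp1, Txn1 and Hmox1 were called lower, and Gsr, Gsta4 and Mgst1 were not called. Of these lower calls Osgin1 alone held on every scaling described below. With libraries rescaled to their summed reads, Prdx1, Gstp1, Txn1 and Hmox1 were not called, and Gsr, Gsta4 and Mgst1 were called higher. Corrected for gene length and GC content, Gstp1, Txn1 and Hmox1 were not called either. Values are RPKM, reads divided by the length of the gene and by a library total that the authors set, and changes are differences of log2(RPKM + 1), stem-labelled minus other, ± SE with 3 libraries per group. A gene was called changed at a Benjamini-Hochberg adjusted p under 0.05 (limma, two-sided, over 10097 genes). Of the 35 members 8 rose and 14 fell, or 22.9% and 40%, where the background was 29.9% of all tested genes called higher and 25.4% called lower. The other 13 members did not pass. The 8 were Nfe2l1, Nfe2l2, Keap1, Gclc, Gclm, Nqo1, Txnrd1 and Srxn1. The 14 were Gss, Osgin1, Txnrd2, Txn1, Txn2, Gstp1, Gsto1, Mgst3, Prdx1, Prdx2, Prdx5, Prdx6, Gpx1 and Gpx4. The median change of the members was -0.42, against 0.11 for all tested genes. Part of this contrast went with expression level. Among genes averaging 5 RPKM or more, 18.8% of 32 members were called higher and 40.6% lower. Of all genes at that level 23.6% were called higher and 34.8% lower, so the excess of lower calls was smaller. The medians at that level were -0.458 for the members and -0.165 for all genes. All 3 stem-labelled libraries lay above all 3 others for 8 members and below them for 16, against 35.7% and 27.8% of all tested genes.

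How many members were called each way depended on the scaling of the libraries. Reads in genes numbered 21196572 to 22838870 per stem-labelled library and 15357608 to 16830762 per other library, which is 0.658 to 0.757 (stem-labelled) and 1.23 to 1.53 (other) of the totals implied by the authors' values. With each library rescaled to its reads summed over genes, the median of all tested genes was 0.86 and that of the members 0.50, with 14 members called higher and 7 lower, against 58.7% and 12.3% of all tested genes. After regression on gene length and GC content the medians were 0.07 for all tested genes and 0.15 for the members, with 8 members called higher and 12 lower, against 25.8% and 22% of all tested genes. Upper-quartile scaling called 10 members higher and 13 lower (38.6% and 21.1% of all tested genes), and limma-voom 7 and 15 (25.8% and 28.4%). Values from the summed-read scale and from the regression are called rescaled and corrected. Across 5 scalings (deposited, upper-quartile, rescaled, corrected, and limma-voom on reads recovered from RPKM) 6 members were called higher every time and 7 lower every time, where 15.4% and 10.1% of all tested genes were. The 6 are Nfe2l1, Nfe2l2, Gclc, Nqo1, Txnrd1 and Srxn1, and the 7 are Osgin1, Txnrd2, Txn2, Mgst3, Prdx5, Gpx1 and Gpx4. The sign of the change depended on the scaling for 9 members, Gss, Glrx, Gstm1, Gstm5, Prdx3, Prdx4, Sod1, Sod2 and Mt1.

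**Figure D1:**
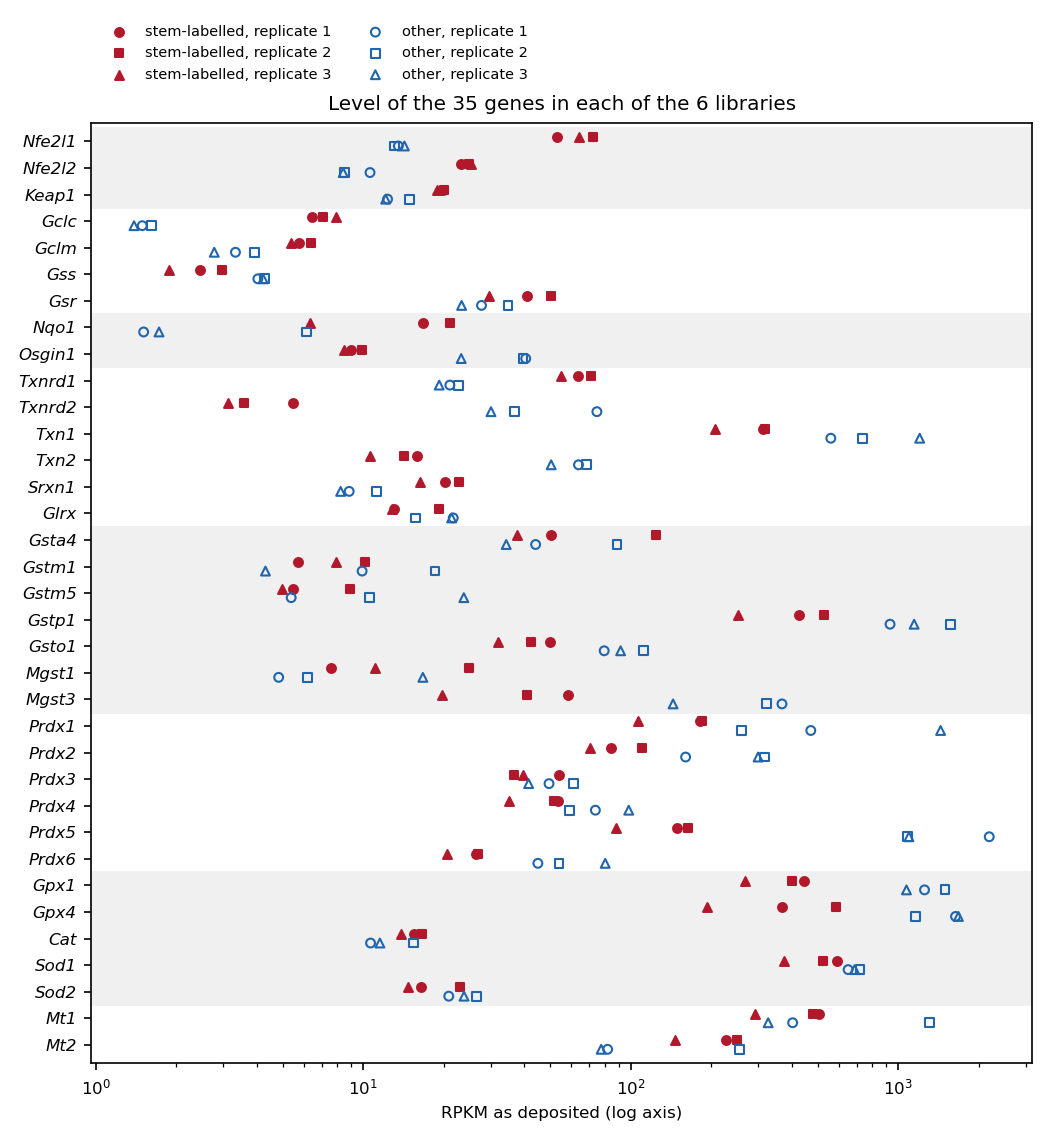
RPKM of each of the 35 genes (log axis) in the 3 stem-labelled libraries (filled, drawn above) and the 3 other libraries (open), with genes ordered by role and grey bands separating the roles. The regulators and Gclc, Txnrd1 and Srxn1 lie to the right in the stem-labelled libraries, and Txnrd2, Txn2, Prdx5, Gpx1 and Gpx4 lie to the left.

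**Figure D2:**
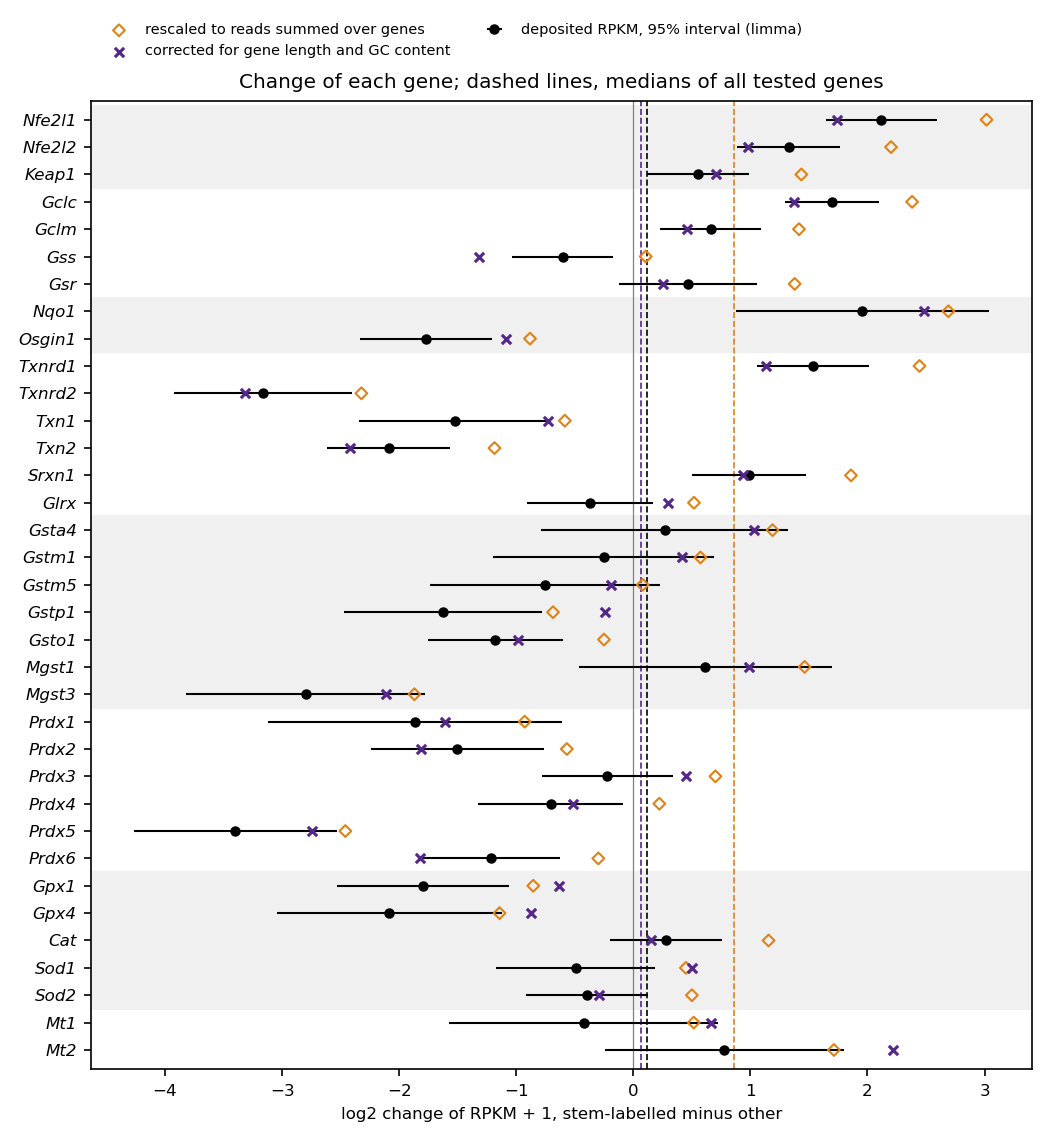
Change of each gene on the log2(RPKM + 1) scale, stem-labelled minus other, as deposited with its 95% interval from limma (black), rescaled to reads summed over genes (orange) and corrected for gene length and GC content (purple). Dashed lines mark the medians of all tested genes, 0.11, 0.86 and 0.07. Prdx5 and Txnrd2 lie farthest to the left and Nfe2l1 and Nqo1 farthest to the right on the deposited scale.

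Promoter windows are shown here because they let the NRF2 motif be set beside the calls. RefSeq windows on GRCm38.p6, from 250 bases before to 50 bases after a start, were available for 31 members, as 43 windows. The ARE core TGACNNNGC, searched on both strands, was present in 9 of these windows (20.9%), against 12.4% of all 32851 windows. Among members called higher with a window, 4 of 7 held the core, and among those called lower 1 of 13. Of all tested genes with a window 17.3% held it, 16.2% of those called higher and 16.4% of those called lower. A match is a description of the letters in these windows, and elements farther from the start were not searched. The stretches around the matches of the called members are printed on the gene's strand, with the core in capitals, which reads GCNNNGTCA where it lies on the opposite strand.
Nfe2l2 (chr2:75704869-75704913, - strand): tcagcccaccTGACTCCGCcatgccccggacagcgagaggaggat
Gclm (chr3:122245398-122245457, + strand): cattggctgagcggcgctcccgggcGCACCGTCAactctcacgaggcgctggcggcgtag
Txnrd1 (chr10:82859089-82859148, + strand): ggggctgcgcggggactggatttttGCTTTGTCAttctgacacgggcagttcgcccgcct
Srxn1 (chr2:152105527-152105573, + strand): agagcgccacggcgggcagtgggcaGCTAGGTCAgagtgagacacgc
Prdx1 (chr4:116685441-116685500, + strand): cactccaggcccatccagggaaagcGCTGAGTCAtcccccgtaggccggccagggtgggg
The 4 genes in the list other than Prdx1 were called higher in the stem-labelled clones, and Prdx1 was called lower. The 4 members with the core but no call were Gstm5, Mgst1, Sod1 and Mt2, and no window was used for Gclc, Gsr, Gsta4 and Prdx6.

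All 3 regulators were called higher on the deposited, rescaled and corrected scales, where 29.9%, 58.7% and 25.8% of all tested genes were. Nfe2l1, on chromosome 11 (96817414 to 96829968, GRCm38), encodes NRF1, a relative of NRF2 known for driving proteasome genes. Its level was 52.8, 72.0 and 64.1 RPKM in the stem-labelled libraries and 13.5, 13.1 and 14.3 RPKM in the other libraries. The groups were far apart, and the change was 2.12 ± 0.21 (adjusted p = 0.000131, limma), or 1.74 after correction. Nfe2l2, on chromosome 2 (75675513 to 75704641), stood at 23.2, 24.8 and 25.2 RPKM in stem-labelled clones against 10.6, 8.49 and 8.42 RPKM in other clones. The stem-labelled libraries were nearly equal for Nfe2l2 and all above the others (1.33 ± 0.20, adjusted p = 0.000549, limma; 0.98 corrected).

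Keap1, which encodes the adaptor that holds NRF2 down, was also higher, with 19.9, 20.1 and 18.8 RPKM in stem-labelled clones against 12.3, 14.9 and 12.1 RPKM in other clones. Its change of 0.55 ± 0.19 was the smallest among the called members (adjusted p = 0.0351, limma). It was lost without any single stem-labelled library (adjusted p = 0.105, 0.113 and 0.0633 without replicates 1, 2 and 3) and without replicate 1 or 3 of the other clones (adjusted p = 0.0718 and 0.108), with changes of 0.50 to 0.58. Limma-voom did not call it either. Keap1 shares exon sequence with Gm16754 on the opposite strand, which stood below 1 RPKM in every library. The ratio of Nfe2l2 to Keap1 within a library does not depend on library scaling. It was 1.17, 1.24 and 1.34 in stem-labelled clones and 0.860, 0.571 and 0.694 in the others, so the groups did not overlap. The ratio is not corrected for gene length or GC content, however. After that correction the changes lay closer together, at 0.98 for Nfe2l2 and 0.71 for Keap1, against 1.33 and 0.55 as deposited.

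Glutathione synthesis split by step. Gclc, the catalytic subunit of glutamate-cysteine ligase, which makes the rate-limiting step, stood at 6.45, 7.06 and 7.90 RPKM in stem-labelled clones against 1.49, 1.62 and 1.39 RPKM in other clones. It was clearly separated, rising by 1.70 ± 0.18 (adjusted p = 0.000149, limma; 1.37 corrected), on 2233 reads in stem-labelled and 178 in other clones. Gclm, the modifier subunit of the same enzyme, had 5.77, 6.40 and 5.39 RPKM in stem-labelled clones against 3.33, 3.93 and 2.78 RPKM in other clones. The groups did not overlap, and Gclm changed by 0.66 ± 0.19 (adjusted p = 0.0158, limma). Its call was lost without stem-labelled replicate 2 (0.60, adjusted p = 0.0638), without other replicate 3 (0.56, adjusted p = 0.0575) and after correction (0.46, adjusted p = 0.133).

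Gss, the synthetase that completes glutathione, went the other way on the deposited scale. Its level was 2.46, 2.98 and 1.87 RPKM in stem-labelled clones against 4.04, 4.28 and 4.23 RPKM in other clones. The groups did not overlap and the change was -0.61 ± 0.19 (adjusted p = 0.0236, limma), which became -1.32 after correction but 0.11 on rescaling, where it did not pass. The call was also lost without stem-labelled replicate 1 or 3 (-0.62 and -0.48, adjusted p = 0.0676 and 0.0789) and without other replicate 3 (-0.60, adjusted p = 0.0505), with upper-quartile scaling (-0.41, adjusted p = 0.0886) and with no filter on low values (adjusted p = 0.0540). Within a library, the ratio of Gclc to Gss was 2.37 to 4.22 in stem-labelled clones and 0.329 to 0.378 in the others. Gss shares 395 of 5915 exonic bases with Acss2 on the opposite strand, which was called higher. The part of Acss2 in the Gss values was not tested. Gsr, the NADPH-dependent reductase that regenerates glutathione, had 40.8, 50.5 and 29.6 RPKM in stem-labelled clones against 27.7, 34.8 and 23.3 RPKM in other clones. These ranges overlapped, and Gsr did not pass (0.47 ± 0.26, adjusted p = 0.157, limma), although it was called higher on rescaling (1.38).

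Nqo1, the quinone reductase a widely used readout of NRF2, rose, with a wide spread. It had 16.8, 21.1 and 6.32 RPKM in stem-labelled clones against 1.51, 6.16 and 1.73 RPKM in other clones. The lowest stem-labelled library, replicate 3, was just above the highest other library, replicate 2. The change was 1.96 ± 0.48 (adjusted p = 0.00730, limma), or 2.49 after correction. Osgin1, an oxidative stress-induced growth inhibitor known as an NRF2 target in human cells, fell. It stood at 9.05, 9.86 and 8.48 RPKM in stem-labelled clones against 40.5, 39.6 and 23.2 RPKM in other clones (-1.77 ± 0.25, adjusted p = 0.000468, limma; -1.09 corrected). Both genes kept their direction and their call in all 17 other settings run, in opposite directions.

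Of the thioredoxin reductases, Txnrd1 rose and Txnrd2 fell, and Txnrd3, on the wider pathway list, was not called (0.08 ± 0.23, adjusted p = 0.778, limma). Txnrd1, the cytosolic selenoenzyme (chromosome 10, 82859206 to 82897724), had 63.4, 70.8 and 54.8 RPKM in stem-labelled clones against 21.1, 22.8 and 19.2 RPKM in other clones. It was higher in every stem-labelled library, by 1.53 ± 0.21 (adjusted p = 0.000417, limma; 1.14 corrected). Txnrd2, the mitochondrial selenoenzyme (chromosome 16, 18426384 to 18479073), stood at 5.49, 3.59 and 3.14 RPKM in stem-labelled clones against 74.7, 36.9 and 30.0 RPKM in other clones. Its groups were separated by a wide gap, with a change of -3.17 ± 0.34 (adjusted p = 0.000152, limma; -3.32 corrected and -2.32 rescaled). The ratio of Txnrd1 to Txnrd2 was 11.6, 19.7 and 17.4 in stem-labelled libraries and 0.282, 0.617 and 0.641 in the others.

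Txn2, the mitochondrial thioredoxin that TXNRD2 reduces, was also lower. It had 15.9, 14.2 and 10.6 RPKM in stem-labelled clones against 63.8, 68.3 and 50.4 RPKM in other clones, with no overlap (-2.09 ± 0.23, adjusted p = 0.000179, limma; -2.42 corrected). Txn1, the cytosolic thioredoxin, had 313, 317 and 207 RPKM in stem-labelled clones against 559, 735 and 1201 RPKM in other clones. It was called lower (-1.53 ± 0.36, adjusted p = 0.00612, limma), but not on rescaling (-0.58, adjusted p = 0.124) nor after correction (-0.73, adjusted p = 0.0565). The ratio of Txn1 to Txn2 overlapped between the groups, from 19.4 to 22.4 in stem-labelled and from 8.77 to 23.8 in other libraries.

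Srxn1, the sulfiredoxin that rescues overoxidised peroxiredoxins, was at 20.2, 22.8 and 16.4 RPKM in stem-labelled clones against 8.87, 11.2 and 8.24 RPKM in other clones. It rose by 0.99 ± 0.22 (adjusted p = 0.00398, limma; 0.94 corrected). Glrx, the cytosolic glutaredoxin, had 13.0, 19.2 and 12.8 RPKM in stem-labelled clones against 21.7, 15.7 and 21.4 RPKM in other clones. Its ranges overlapped and it did not pass (-0.37 ± 0.24, 95% interval -0.91 to 0.17), and its sign turned on rescaling and after correction.

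**Figure D3:**
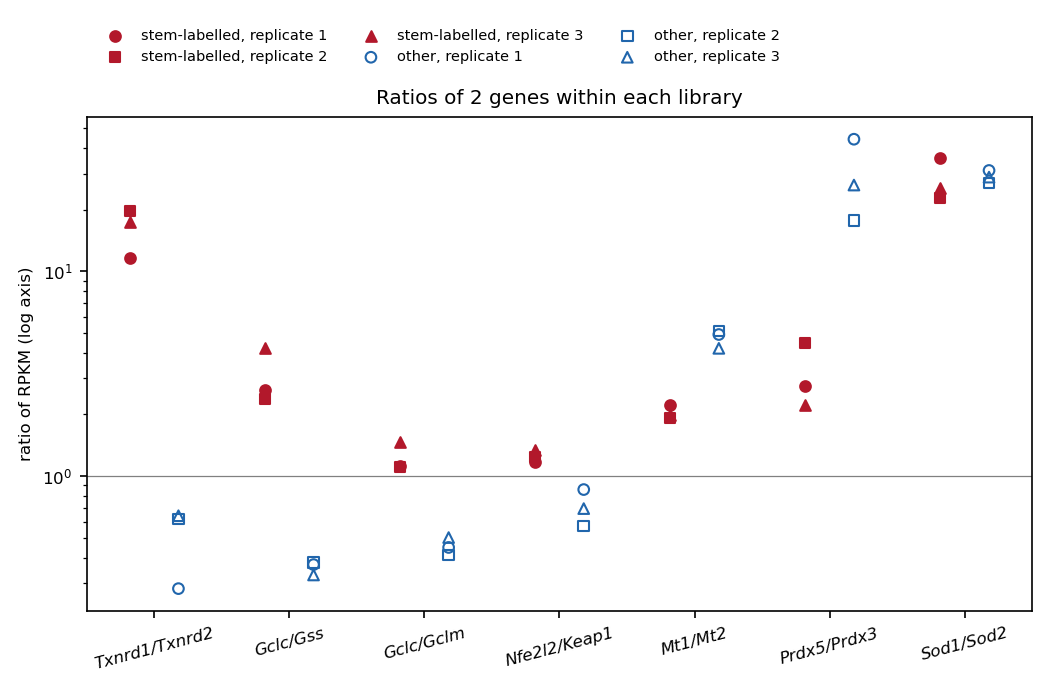
Ratio of the RPKM of 2 genes (log axis) within each stem-labelled (filled, left) and other (open, right) library, which does not depend on how libraries are scaled to each other. The Txnrd1 to Txnrd2 ratio was 11.6 to 19.7 in stem-labelled and 0.282 to 0.641 in other libraries, and the Sod1 to Sod2 ratio overlapped.

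Of 6 peroxiredoxins, thiol enzymes that reduce hydrogen peroxide, 4 fell and 0 rose as deposited and after correction, where 25.4% and 22% of all tested genes were called lower and 29.9% and 25.8% higher. On rescaling 1 was called lower (Prdx5) and 1 higher (Prdx3), against 12.3% and 58.7% of all tested genes. Prdx5 (chromosome 19, 6906697 to 6910106), found in mitochondria, peroxisomes and cytosol, had 149, 164 and 88.0 RPKM in stem-labelled clones against 2185, 1081 and 1095 RPKM in other clones. This was the largest change of any member on the deposited scale, -3.40 ± 0.38 (adjusted p = 0.000188, limma; -2.74 corrected and -2.46 rescaled). It shares 409 of 2139 exonic bases with Trmt112 on the opposite strand, which itself was called lower, at 51.5 to 74.4 RPKM in stem-labelled clones against 292 to 376 RPKM in other clones. Its part in the Prdx5 difference was not tested. Prdx3, the mitochondrial peroxiredoxin, had 54.2, 36.7 and 39.5 RPKM in stem-labelled clones against 49.5, 61.2 and 41.5 RPKM in other clones. These values overlapped (-0.22 ± 0.25, 95% interval -0.78 to 0.34). The Prdx5 to Prdx3 ratio was 2.23 to 4.46 in stem-labelled and 17.7 to 44.1 in other libraries.

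Prdx1 and Prdx2 are the abundant cytosolic peroxiredoxins. Prdx1 had 181, 185 and 107 RPKM in stem-labelled clones against 471, 260 and 1438 RPKM in other clones. All other libraries were higher, but replicate 3 was far above replicates 1 and 2. The change of -1.87 ± 0.56 passed (adjusted p = 0.0182, limma), and was lost on rescaling (-0.93, adjusted p = 0.0842), with no filter on low values and without stem-labelled replicate 3 (-1.61, adjusted p = 0.0711). Without other replicate 3 it was -1.19 and still called. Prdx1 shares 10.9% of its 50-base stretches with Gm21399, Gm7204 and Gm15974, whose part in its level was not tested. Prdx2 stood at 84.6, 110 and 70.2 RPKM in stem-labelled clones against 160, 317 and 299 RPKM in other clones (-1.50 ± 0.33, adjusted p = 0.00394, limma; -1.81 corrected). The groups did not overlap, and rescaling ended the call (-0.57). Prdx2 shares 23.8% of its 50-base stretches with Tdpx-ps1, Prdx2-rs3 and the adjoining opposite-strand genes Junb and Rnaseh2a. Junb stood at 91.7 to 161 RPKM in stem-labelled clones against 321 to 534 RPKM in other clones, and Rnaseh2a at 10.6 to 17.5 RPKM in stem-labelled clones against 42.7 to 64.7 RPKM in other clones, both called lower. Their part in the Prdx2 difference was not tested.

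Prdx6, which reduces phospholipid peroxides, had 26.3, 26.9 and 20.5 RPKM in stem-labelled clones against 45.0, 54.0 and 80.3 RPKM in other clones. It fell by 1.22 on the log2 scale (SE 0.26, adjusted p = 0.00385, limma), with -1.82 after correction and -0.30 on rescaling, where it did not pass. Prdx4, the peroxiredoxin of the endoplasmic reticulum, had 53.3, 51.6 and 35.01 RPKM in stem-labelled clones against 73.8, 59.0 and 98.3 RPKM in other clones. The groups did not overlap but Prdx4 missed the threshold (-0.70 ± 0.28, adjusted p = 0.0533, limma). Prdx4 passed without other replicate 2 (-0.88, adjusted p = 0.0301; range over left-out libraries -0.88 to -0.52), with limma-voom and with limma without the variance trend.

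The glutathione peroxidases Gpx1 and Gpx4 were lower in the stem-labelled clones on all 5 scalings. Gpx3, a secreted glutathione peroxidase of the wider pathway list, was called higher on each of them (0.89 ± 0.27 as deposited, adjusted p = 0.0191, limma). Gpx3 was low, with 1.65 to 2.69 RPKM in stem-labelled and 0.219 to 1.46 RPKM in other clones (48 reads). Its call was lost without stem-labelled replicate 3, without other replicate 1 or 3, and with no filter on low values. Gpx1, the cytosolic and mitochondrial enzyme for hydrogen peroxide, had 444, 400 and 268 RPKM in stem-labelled clones against 1252, 1493 and 1072 RPKM in other clones. Every stem-labelled library was far below every other library for Gpx1, with -1.80 ± 0.33 (adjusted p = 0.00156, limma) but only -0.64 after correction (adjusted p = 0.0462). Gpx4, which reduces lipid peroxides in membranes and restrains ferroptosis, had 368, 585 and 192 RPKM in stem-labelled clones against 1635, 1161 and 1676 RPKM in other clones (-2.08 ± 0.43, adjusted p = 0.00290, limma; -0.87 corrected, adjusted p = 0.0453). With the correction and the replicate block together neither was called (adjusted p = 0.0865 for Gpx1 and 0.0832 for Gpx4). Of its 50-base stretches 61.7% also occur in Gpx4-ps2 or AC122253.3, so reads could be split between copies and the Gpx4 level is uncertain.

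Catalase and the superoxide dismutases did not pass as deposited. Cat, the peroxisomal enzyme that breaks down hydrogen peroxide, had 15.4, 16.7 and 13.8 RPKM in stem-labelled clones against 10.7, 15.4 and 11.6 RPKM in other clones (0.28 ± 0.21, 95% interval -0.20 to 0.76). The ranges overlapped, and Cat was called higher on rescaling (1.16). Sod1, the cytosolic copper-zinc enzyme, had 588, 523 and 373 RPKM in stem-labelled clones against 649, 718 and 686 RPKM in other clones (-0.49 ± 0.30, 95% interval -1.17 to 0.19). Sod2, the mitochondrial manganese enzyme, had 16.4, 23.0 and 14.7 RPKM in stem-labelled clones against 20.9, 26.6 and 23.8 RPKM in other clones (-0.40 ± 0.23, 95% interval -0.92 to 0.12). Sod1 did not overlap and Sod2 did, and the sign of each turned on rescaling. The Sod1 to Sod2 ratio was 22.7 to 35.8 in stem-labelled and 27.0 to 31.1 in other libraries.

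Of 7 glutathione transferases, which conjugate glutathione to electrophiles, 3 were called lower and 0 higher as deposited, where 25.4% and 29.9% of all tested genes were. After correction 2 were called lower and 0 higher (22% and 25.8% of all tested genes), and on rescaling 1 lower and 2 higher (12.3% and 58.7%). Mgst3, a microsomal enzyme, had 58.0, 41.1 and 19.7 RPKM in stem-labelled clones against 367, 322 and 144 RPKM in other clones. Each group varied widely yet they did not overlap (-2.80 ± 0.45, adjusted p = 0.000896, limma; -2.12 corrected). Gsto1, the omega-class enzyme, had 49.9, 42.4 and 31.9 RPKM in stem-labelled clones against 79.6, 112 and 91.6 RPKM in other clones (-1.18 ± 0.25, adjusted p = 0.00379, limma), with -0.25 and no call on rescaling. Gstp1, the pi-class enzyme abundant in many tumours, had 424, 529 and 252 RPKM in stem-labelled clones against 931, 1568 and 1145 RPKM in other clones. It was called lower (-1.63 ± 0.38, adjusted p = 0.00529, limma), but not on rescaling (-0.69) or after correction (-0.24). It shares 62.3% of its 50-base stretches with Gstp2 and Gstp-ps, which makes its level uncertain, and Gstp2 itself had at most 0.214 RPKM.

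The other transferases spread widely within groups and did not pass. Gsta4, which clears the lipid peroxidation product hydroxynonenal, had 50.4, 124 and 37.6 RPKM in stem-labelled clones against 44.1, 88.8 and 34.2 RPKM in other clones. The order of the replicate numbers was the same in both groups, and the ranges overlapped (0.27 ± 0.47, 95% interval -0.79 to 1.32). Gstm1 and Gstm5, mu-class enzymes, ranged from 5.70 to 10.2 RPKM in stem-labelled against 4.32 to 18.6 RPKM in other clones, and from 4.96 to 8.90 RPKM in stem-labelled against 5.38 to 23.8 RPKM in other clones. Mgst1, another microsomal enzyme, ranged from 7.55 to 24.9 RPKM in stem-labelled against 4.84 to 16.7 RPKM in other clones. As deposited the changes were -0.25 ± 0.42 for Gstm1, -0.75 ± 0.44 for Gstm5 and 0.61 ± 0.48 for Mgst1. Gstm1 shares 23.1% of its 50-base stretches with 5 genes, Gstm2 and Gstm3 among them, which makes its level uncertain. Gstm5 shares 10.1% with 4933431E20Rik on the opposite strand. Gstm5 passed as lower without other replicate 1 (-1.22, adjusted p = 0.0250), and Mgst1 passed as higher without other replicate 3 (1.10, adjusted p = 0.0358). Leaving out another library took Gstm5 as near to 0 as -0.24 (without other replicate 3) and Mgst1 to 0.17 (without stem-labelled replicate 2), neither called.

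The metallothioneins were among the most abundant members and did not pass on the deposited scale. Mt1 had 506, 480 and 291 RPKM in stem-labelled clones against 403, 1304 and 326 RPKM in other clones (-0.42 ± 0.51, 95% interval -1.57 to 0.73). Mt2 had 227, 249 and 147 RPKM in stem-labelled clones against 81.9, 256 and 77.5 RPKM in other clones (0.78 ± 0.46, 95% interval -0.24 to 1.80). Other replicate 2 was the highest library of all for both genes, and without it Mt2 was called higher (1.33, adjusted p = 0.00706), while leaving out another library gave changes down to 0.48. Mt2 was also called higher on rescaling (1.71) and after correction (2.22), and Gm45774 on the opposite strand covers 432 of its exonic bases. The ratio of Mt1 to Mt2, neighbouring genes on chromosome 8, did not overlap, at 1.93 to 2.23 in stem-labelled and 4.21 to 5.10 in other libraries.

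As a share of all reads in genes, which does not use the authors' totals, the 35 members took 0.737%, 0.839% and 0.584% in stem-labelled libraries and 1.10%, 1.12% and 1.10% in the others. Peroxiredoxins took 0.180 ± 0.031% in stem-labelled and 0.469 ± 0.090% in other libraries (SD, n = 3 each). The peroxidases, catalase and dismutases took 0.222 ± 0.057% in stem-labelled and 0.359 ± 0.030% in other libraries. The 3 regulators took 0.0733 ± 0.00999% in stem-labelled and 0.0123 ± 0.0016% in other libraries. Glutathione synthesis and recycling genes took 0.0257 ± 0.0032% in stem-labelled and 0.0095 ± 0.0025% in other libraries. None of these shares overlapped between the groups, and an exact permutation test of 3 against 3 cannot give a two-sided p below 0.1. The thioredoxin genes, at 0.0908 ± 0.0096% in stem-labelled and 0.105 ± 0.011% in other libraries, the transferases and the metallothioneins overlapped.

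Gene length moves with the change across all genes, with a median of -1.17 among genes of 57 to 1075 bases and of 0.72 among those of 8323 to 38847 bases, when tested genes were split by length into 10 equal bins. The members are short, with a median length of 2139 bases against 3634 for all tested genes, and the called ones had a median of 3609 bases where higher and 2406 where lower. Nqo1, at 1553 bases, rose in a length range (1076 to 1789 bases) where 7.23% of genes were called higher. The share called higher was 42.6% at the lengths of Nfe2l1 and Gclm, 37.2% at that of Keap1 and 30.7% at that of Nfe2l2. It was 28.3% at the lengths of Gclc and Txnrd1 and 21.4% at that of Srxn1. Txnrd2 and Txn2, at 4401 and 4208 bases, fell in ranges where 14.8% and 18.9% were called lower. Prdx6 and Gss, at 4804 and 5915 bases, likewise fell among lengths where 14.8% and 10.9% were. For Gpx1, Gpx4, Mgst3 and Prdx5, at 1097 to 2139 bases, the share called lower among genes of like length was 35.8% to 48.5%. For Txn1 and Gstp1, at 1051 and 757 bases, it was 61.1%. For Gsto1 it was 35.8%, for Osgin1 29.5%, and for Prdx1 and Prdx2 20.9%.

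**Figure D4:**
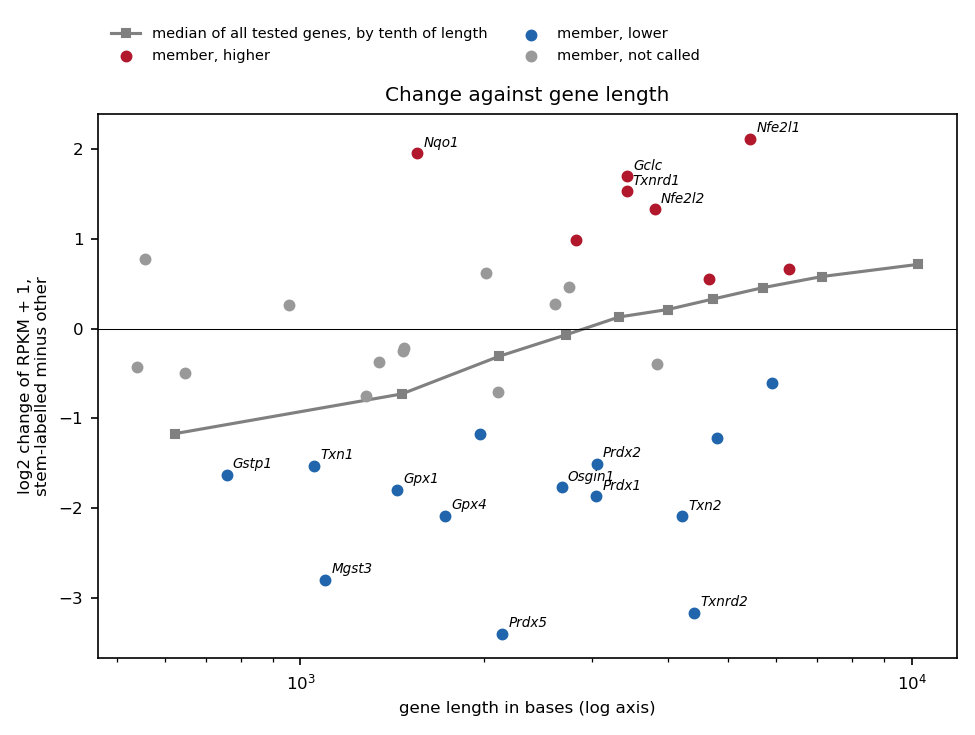
Change of each member on the log2(RPKM + 1) scale against gene length in bases (log axis), coloured by call, with the median of all tested genes in each of 10 length bins (grey line, from -1.17 to 0.72). Nqo1 lies far above the grey line and Txnrd2, Txn2 and Prdx5 lie far below it.

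Libraries with the number 2 were often the highest of their group for these genes. Within the stem-labelled libraries replicate 2 was highest for 24 of 35 members, and within the other libraries for 21. Of all tested genes 30.7% and 39% were highest there. Replicate 2 was highest in both groups for 14 of 35 members (40%), against 12.9% of all tested genes, a pattern chosen after the values were seen. Separate counts of 24 and 21 of 35 would give a joint count of about this size if the groups were unlinked. No test of a link was run. When rescaled, replicate 2 was likewise highest in both groups for 14 members, against 14% of all genes. The 14 were Keap1, Gclm, Gss, Gsr, Nqo1, Txnrd1, Srxn1, Gsta4, Gstm1, Gstp1, Prdx2, Cat, Sod2 and Mt2. For replicates 1 and 3 the counts were 2 and 0 members. Over all tested genes, same-numbered libraries did not deviate together (correlations of -0.125, 0.0255 and -0.0848), and the labels do not say that numbers mark experiments.

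**Figure D5:**
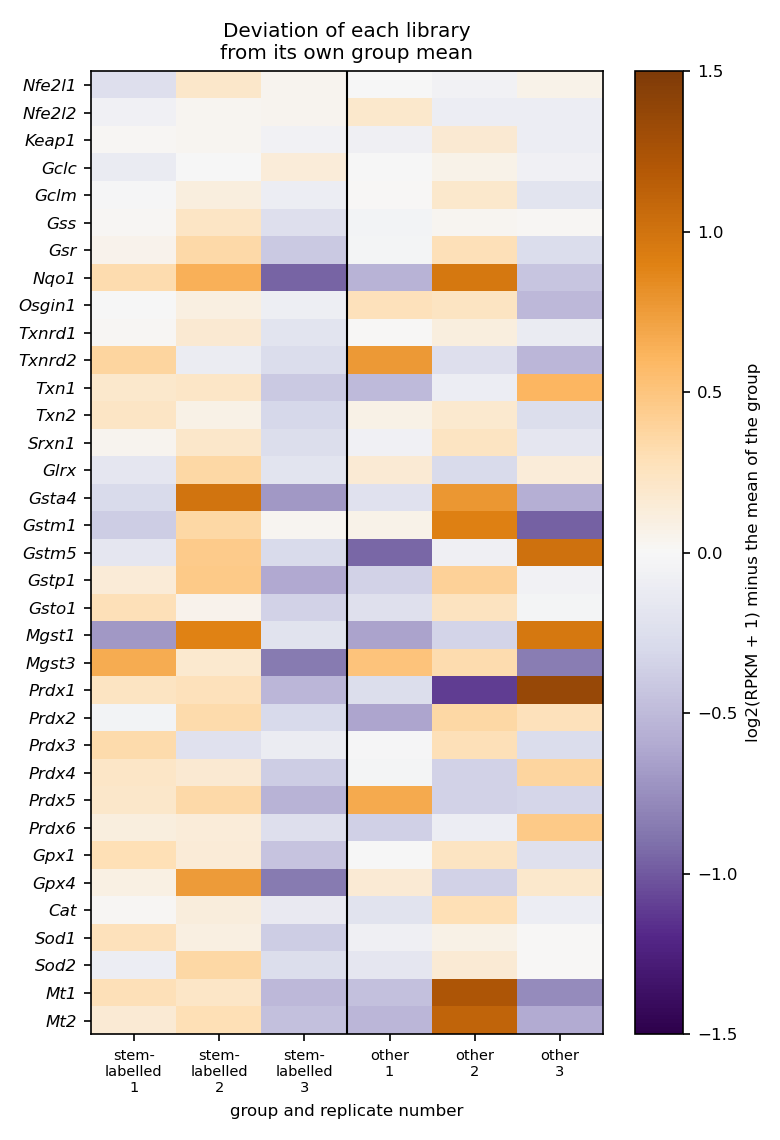
Deviation of each library from the mean of its own group on the log2(RPKM + 1) scale, for the 3 stem-labelled libraries (left) and the 3 other libraries (right). Replicate 2 stands above its group mean by 0.99 and 0.78 for Gsta4 and by 0.64 and 0.97 for Nqo1 (stem-labelled and other clones), and in the other clones by 1.23 for Mt1.

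Of 85 other genes of the pathway, 80 were in the files and 62 passed the filter on low values. As deposited 13 were called higher (21%) and 15 lower (24.2%), against 29.9% and 25.4% of all tested genes. On rescaling 35 (56.5%) were called higher and 6 (9.68%) lower, against 58.7% and 12.3%. After correction 11 (17.7%) and 8 (12.9%) were, against 25.8% and 22%. Each share was below that of all tested genes. Mafg, a small MAF partner of NRF2, rose, with 36.0, 30.1 and 32.2 RPKM in stem-labelled clones against 12.0, 10.1 and 11.2 RPKM in other clones (1.48 ± 0.20, adjusted p = 0.000358, limma; 1.15 corrected). Gstcd, Sesn1, Abcc5, Mtf1 and Msrb3 were also called higher, by 0.86 to 1.48. In the other clones Abcc5 had 0.586 to 0.744 RPKM and Mtf1 0.496 to 0.838 RPKM. Both thus passed the filter of 1 RPKM only through the stem-labelled libraries, and were not tested when any of those was left out. Mtf1, the metal-sensing factor, and Abcc5, an efflux transporter, were near 0 after correction (-0.09 and -0.03).

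The called decreases with the smallest p were Ggct, Gpx8, Park7, Ccs, Glrx5 and Chac1, with changes from -3.16 to -1.60, and all 6 were also called lower on rescaling. Chac1 and Ggct, enzymes of glutathione breakdown, changed by -2.22 ± 0.38 and -2.20 ± 0.26. Gpx8, a peroxidase of the endoplasmic reticulum, had 11.6, 18.6 and 13.0 RPKM in stem-labelled clones against 137, 68.5 and 256 RPKM in other clones (-3.16 ± 0.43, adjusted p = 0.000378, limma; -2.11 corrected). Ccs, the copper chaperone of SOD1, changed by -1.60 ± 0.26 but by -0.29 after correction, where it was not called (adjusted p = 0.257), and Chac1 was not called with the correction and the replicate block together (adjusted p = 0.0637).

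Hmox1, the heme oxygenase regulated by NRF2 and BACH1, was lower. It had 5.02, 8.31 and 5.68 RPKM in stem-labelled clones against 10.2, 23.6 and 10.2 RPKM in other clones (-1.02 ± 0.33, adjusted p = 0.0252, limma). Its call was lost on rescaling (-0.18), after correction (-0.79), and without stem-labelled replicate 1 or 3 (-0.89 and -0.96) or other replicate 2 (-0.64). Upper-quartile scaling (-0.78, adjusted p = 0.0631) and no filter on low values (adjusted p = 0.0864) ended it as well. Slc7a11, the cystine importer, was below the filter, with 0.111, 0.265 and 0.810 RPKM in stem-labelled clones against 0.0542, 0.0346 and 0.0713 RPKM in other clones, on 519 reads in stem-labelled and 25 in other clones. Sqstm1, the p62 adaptor that competes with NRF2 for KEAP1, had 246, 367 and 215 RPKM in stem-labelled clones against 123, 231 and 164 RPKM in other clones and did not pass (0.68 ± 0.33, adjusted p = 0.105, limma). It was called higher without other replicate 2 (0.91, adjusted p = 0.0464), with upper-quartile scaling (0.94) and on rescaling (1.62), and was at its lowest, 0.46, without stem-labelled replicate 2.

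The summed level of the 7 mammary epithelial markers found, of 8 listed, was 913 to 1400 RPKM in stem-labelled and 1878 to 3523 RPKM in other libraries, led by Krt8 and Krt18, and Cdh1 was called higher and 3 of the markers lower. The part of these marker levels in the members' differences was not tested. Summed fibroblast markers were at 1.68 to 3.39 RPKM in stem-labelled and 0.396 to 1.01 RPKM in other libraries. Nearly all of this came from Pdgfra (means of 2.59 and 0.65 RPKM), and 2 of the 6 listed were not found. The other fibroblast markers found averaged at most 0.0501 RPKM in either group. Endothelial markers summed to below 0.1 RPKM in all libraries. Leukocyte markers summed to 12.2 to 39.9 RPKM in stem-labelled and 6.09 to 29.3 RPKM in other libraries, nearly all from Cd68, which other cells also express, and 3 of the 6 listed were not found. Of 10 breast cancer stem cell markers listed for this report, Itga6 was called higher and the rest were not called or not tested. The labels do not say that any of them was used to assign the clones. Sox2, Nanog and Pou5f1 were at 0 in all stem-labelled libraries but not in all other libraries.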

How the data were processed

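The labels' protocols describe mRNA sequencing of 6 libraries, grouped by their tissue label, 3 per group. The authors deposited RPKM, 1 table a library. The product of RPKM and length is an integer multiple of 1 constant per library (tolerance 0.01), and this gave back the reads. The submitters' processing notes name Bowtie2 2.0.6, TopHat2 2.0.9 and mm9, without roles. The counting program and strand are not given in the sources used here. Start and end equalled those of GRCm38 (GENCODE M21) for 80.6% of genes, so positions are given on GRCm38. A single read was equivalent to 0.0311 to 0.0993 RPKM in a gene 1 kilobase long.

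The test was limma 3.58.1 (R 4.3.3), with a variance trend, on log2(RPKM + 1) of genes reaching 1 RPKM in at least 3 libraries. All 35 members passed that filter. This scale understates changes of low genes. The correction fitted deviations from gene means with splines (5 degrees of freedom) of log2 length and GC content. On data simulated with independent noise (10097 genes, 200 changed), 42% of the 2-fold and 82% of the 4-fold changes were called, with 6 false calls. In the real data 5577 genes were called, and the simulation held no scaling or length differences between libraries. Its rates therefore do not give the power or the false calls of this comparison. All members were named, and of the other pathway genes up to 6 called each way with the smallest p, plus Hmox1, Slc7a11 and Sqstm1. Members and lists were chosen with earlier results of these data known, and the ratios after values were seen. P-values measure the spread between these libraries, which may be technical in part. Alternatives were other scalings, filters, pseudocount, variance settings, a replicate block and leaving out each library.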

Additional observations from a re-analysis of the deposited data

How the results depend on the processing

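Of the settings varied, those that left out 1 library gave 6 to 9 members called higher and 12 to 15 called lower, with a member median of -0.57 to -0.28. They gave 6 to 17 other pathway genes called higher and 8 to 16 called lower, and 4286 to 5336 genes called changed in all, 2068 to 3034 higher and 2149 to 2302 lower. The lowest counts of other pathway genes called, 6 higher and 8 lower of 59, came without stem-labelled replicate 3. These were 10.2% and 13.6%, against 22.2% and 22.9% of all tested genes. Without stem-labelled replicate 1, 8 of 59 were called higher (13.6%, against 21.6%). Same-numbered libraries share only a number (correlations of deviations -0.125, 0.0255 and -0.0848). With the replicate number as a block, 7 members were called higher and 14 lower (27.1% and 24.5% of all tested genes), and Keap1 lost its call (adjusted p = 0.0748). With the block and the length and GC correction together the counts were 9 and 10 (25.7% and 28.6%, against 23% and 19.7% of all tested genes), and Gpx1 and Gpx4 lost their calls.

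Rescaling to summed reads gave 14 members called higher and 7 lower, 35 and 6 other pathway genes, and 5926 and 1245 of all genes, and turned the member median to 0.50. The correction turned it to 0.15, also with the block. Each time 8 other pathway genes were called lower (12.9%, against 22% and 19.7% of all tested genes). Upper-quartile scaling called 20 of 62 other pathway genes higher (32.3%, against 38.6% of all tested genes). With no filter 8 of 80 were called higher (10%, against 16%). A filter of mean RPKM at least 5 called 4 of 40 higher (10%, against 23.6%), with 3477 genes called in all and 1405 higher. The cause of these shifts was not tested.

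Signs turned on rescaling for Gss (0.11), Glrx (0.52), Gstm1 (0.57), Gstm5 (0.08), Prdx3 (0.70), Prdx4 (0.22), Sod1 (0.45), Sod2 (0.50) and Mt1 (0.52), and after correction, with or without the block, for Glrx (0.29), Gstm1 (0.41), Prdx3 (0.45), Sod1 (0.50), Mt1 (0.66), Abcc5 (-0.025) and Mtf1 (-0.092). Prdx3 stood at 0.035 with upper-quartile scaling. Leaving out 1 library gave -0.23 to 0.66 for Gsta4, -0.74 to 0.20 for Gstm1 and -0.81 to 0.19 for Mt1. Genes with few reads, such as Gclc and Nqo1 in the other clones (178 and 174), are limited by depth.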
